A study of Sus scrofa with 6 samples.

Results

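The genes described here build the extracellular matrix, cut it, or bind cells to it. They were taken by symbol, under a rule that holds no signal values but was chosen with earlier results of these data known. A symbol had to be COL, LAMA, LAMB, LAMC, ITGA, ITGB, MMP, TIMP or FBN followed by a digit, begin with ADAMTS, be LOX or a LOXL gene, or be FN1, ELN, LUM, DCN, BGN or ASPN. Of 6765 genes with a single symbol on the array, 53 met this rule, on 95 of 10069 such probe sets. For the 26 genes with several probe sets, the one with the highest mean signal over the 6 arrays was used. ITGB1BP2, an integrin-binding protein, met the rule by its letters only. ELN, laminin alpha chains and fibrillins other than FBN1 were not analysed here.

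The arrays held ovary, and uterine tissue that the labels call myometrium, of non-pregnant (NP), early pregnant (EP) and late pregnant (LP) sows. There was 1 array for each tissue and stage, 6 in all. The design text counts 9 pigs, 3 per stage. The sources used here do not give breed, age, day of gestation, or whether RNA of several pigs was combined on an array. Values are MAS5 signals, in which the probes of a probe set are condensed to 1 number on a linear scale. Signals under a floor of 81.7, the 40th percentile of all signals, were set to it before log2 was taken, and a ratio with the dimmer side at the floor is written "at least". The share of probe sets over the floor was 57.4% to 61.6% per array. On the NP ovary array the hybridisation controls stood at 0.46 (log2, relative to the average array), and the ratio of 3' to 5' GAPDH signal was 2.33. On the other 5 arrays these values were -0.21 to 0.07 and 1.51 to 1.99.

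The label myometrium did not match the markers of smooth muscle alone. Of 11 smooth muscle markers 0 passed between the tissues by limma, although all 11 lay toward ovary. Their median log2 difference, ovary minus uterine tissue, was 0.92, against 0.013 over all tested probe sets. Their summed signal was 39929 to 63512 on the ovary arrays and 19382 to 32447 on the uterine arrays. All 13 epithelial markers on the array were higher in the uterine tissue. Their summed signal was 1233 to 1676 on the ovary arrays and 48929 to 59826 on the uterine arrays, and KRT18, CLDN3, CLDN4, CLDN7, ELF3 and SPINT1 lay under the floor on every ovary array. Markers of trophoblast, the outer cell layer of the conceptus, summed to 640 to 3076 in ovary, and to 1523, 59910 and 73477 on the NP, EP and LP uterine arrays. PAG6, a pregnancy-associated glycoprotein, read 75.2 on the NP, 22022 on the EP and 28500.2 on the LP uterine array. PLET1 and PAG6 made up most of the EP and LP sums. Of 7 trophoblast markers, 5 were 2-fold or more higher in the EP than in the NP uterine tissue, beside 8.76% of all measured probe sets. The others were GATA2 (887 at NP, 811 at EP) and PEG10 (351 and 435). On the NP and EP ovary arrays PLET1 read 140 and 1661, and PAG6 36.6 and 240. In bulk tissue, fewer cells of a type and less RNA per cell cannot be told apart.

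Fibrillar collagens give a tissue its tensile strength, collagen IV and laminins form the sheet under epithelia and around muscle and vessels, and lysyl oxidases cross-link collagen and elastin. Matrix metalloproteinases cut these proteins, TIMPs block the metalloproteinases, and integrins, each an alpha and a beta chain, anchor cells to the matrix. In the pig the conceptus attaches to the uterine surface without invading it, while the corpus luteum of the ovary is built and removed with much turnover of matrix.

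Between the tissues, the clearest differences were in MMP7 and LUM, both higher in uterine tissue. MMP7, or matrilysin, is a small metalloproteinase typical of glandular epithelium. It read 3.6, 7.1 and 8.3 on the NP, EP and LP ovary arrays, all under the floor, and 1829, 988 and 723 on the uterine arrays. LUM, lumican, is a small leucine-rich proteoglycan that binds collagen fibrils and spaces them. It read 575, 1854 and 1283 in ovary, against 15608, 12122 and 8087 in uterine tissue. For both genes every ovary array lay under every uterine array. By limma, with stage as a block, MMP7 was at least 13.4-fold higher in uterine tissue (log2 difference, ovary minus uterine tissue, -3.74 ± 0.37, SE, adjusted p = 0.0116). LUM was 10.4-fold higher there (-3.38 ± 0.44, adjusted p = 0.0185). MMP7 passed the filter on low signals by its uterine arrays alone. Its ovary signals were all set to the floor before the fit, so its SE and p-value hold no spread among ovary arrays. Of 53 members, 9 lay under the floor on all arrays, 5 were above it on 1 array only, and 39 could be tested. Of these 39, 0 were higher in ovary, 2 were higher in uterine tissue and 37 did not pass. Over all 15882 probe sets tested, 2.84% were higher in ovary and 2.23% in uterine tissue, and with 1 probe set per gene 2.95% and 2.51%. The members' median log2 difference was 0.031, and that of all tested probe sets was 0.013. At an unadjusted p under 0.05, 3 members were higher in ovary and 5 in uterine tissue, against 11.7% and 10.2% of all tested probe sets (21.9% in either direction). With signals under the floor set to it, the tissues did not overlap in 5 of the 39 members (12.8%), which were MMP7, LUM, FN1, LAMB2 and TIMP1, against 27.4% of all tested probe sets. Both calls were lost without the EP arrays, where 0 probe sets passed in the whole table while the log2 differences were -3.81 for MMP7 and -3.71 for LUM (adjusted p = 0.168 and 0.177), and without the filter on low signals, where again 0 probe sets passed and both differences were as reported (adjusted p = 0.222 and 0.267). Arrays of a tissue are stages and not replicates, so the p-values do not measure how much pigs vary.

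**Figure D1:**
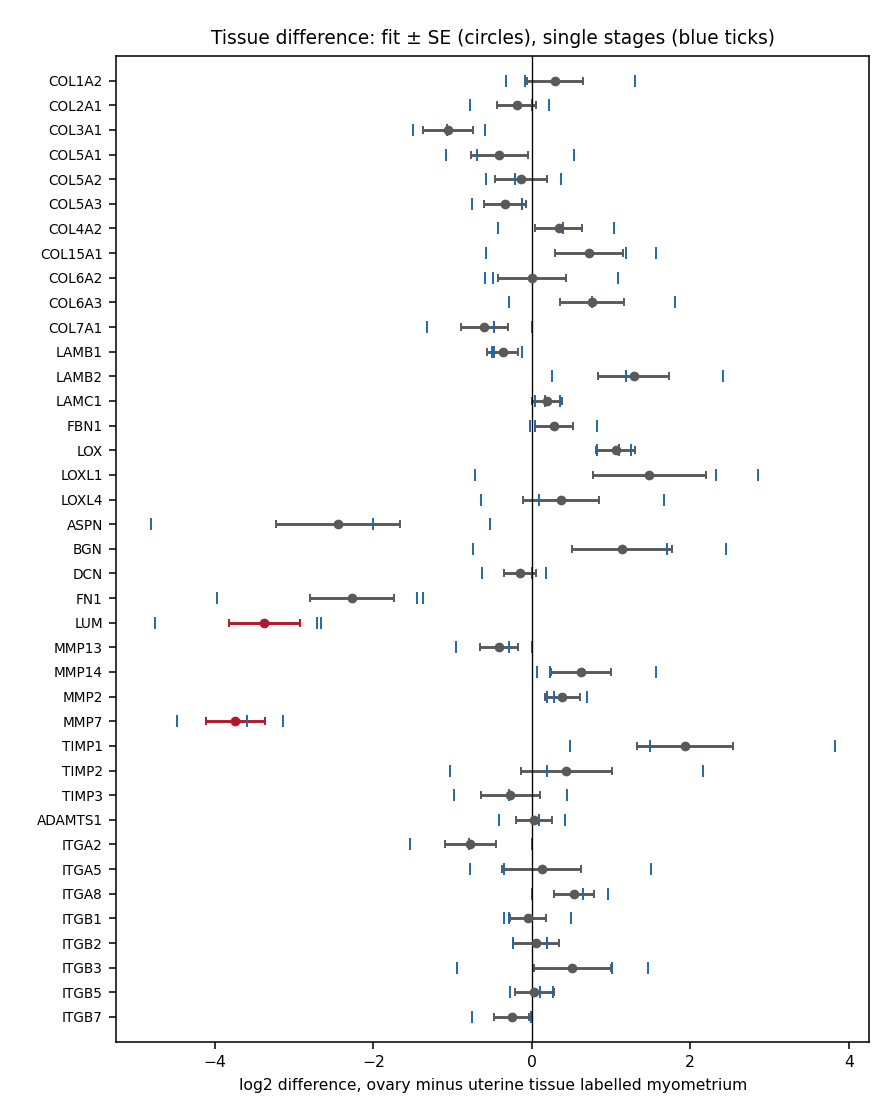
Log2 difference in signal, ovary minus uterine tissue, of the 39 tested members in order of role. Circles with bars are the limma estimate ± SE over 6 arrays, red where adjusted p was under 0.05, and blue ticks are the NP, EP and LP pairs of arrays. MMP7 and LUM stand at -3.74 and -3.38, while the ticks of ASPN, TIMP1, BGN and LOXL1 are spread widely.

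Between stages, members with 2-fold differences included TIMP1, TIMP2, TIMP3, LOXL1, LOXL4 and FN1, which in uterine tissue were higher at LP than at NP. A further TIMP2 probe set gave only 1.19-fold there. TIMP1, BGN, MMP2 and 4 integrin chains were lower at LP than at NP in ovary. The NP ovary array, against which these 7 were read, is the one with the raised hybridisation controls (0.46, against -0.061 on the LP ovary array) and GAPDH ratio (2.33, against 1.51), whose part in these ratios was not tested. These comparisons set 1 array against 1, so there is no test and no check by replicates. The LP over NP and EP over NP ratios of a tissue share the NP array. In the EP ovary 3 of 34 measured members were 2-fold or more higher than in the NP ovary and 1 lower, beside 2.45% and 2.15% of all measured probe sets. In the LP ovary 1 of 35 was higher than in NP and 7 lower, beside 2.92% and 3.65%. In the LP ovary 0 of 34 were higher than in EP and 8 lower, beside 1.5% and 2.71%. In the EP uterine tissue 6 of 41 were higher than in NP and 7 lower, beside 8.76% and 10.3%. In the LP uterine tissue 11 of 41 were higher than in NP and 5 lower, beside 10.9% and 12.6%. In the LP uterine tissue 6 of 41 were higher than in EP and 4 lower, beside 5.87% and 5.62%. The members' median log2 ratio was 0.31, -0.36 and -0.58 in the ovary comparisons, EP over NP, LP over NP and LP over EP, against -0.017, -0.064 and -0.040 for all measured probe sets. In uterine tissue it was -0.18, 0.21 and 0.049, against -0.17, -0.14 and 0.0084. Of 11 smooth muscle markers, 6 were 2-fold or more higher in the EP than in the NP ovary and 7 lower in the LP than in the EP ovary, with sums of 49622, 63512 and 39929 on the NP, EP and LP ovary arrays. Fibroblast and stromal markers summed to 44197, 45073.5 and 34402 on those arrays and to 21281, 34497 and 43542 on the uterine arrays. THY1 had the largest rise in the uterine sums, at 1183, 15460 and 21302. Against the NP uterine array, 4 of these 7 markers were lower and 3 higher at EP, and 2 were lower and 5 higher at LP. The part of these cells in the members' ratios was not tested. With a gene's probe sets averaged, 4 members were lower in the LP than in the EP ovary, 6 were higher in the LP than in the NP uterine tissue, and 2 were lower in the LP than in the EP uterine tissue. With the floor at the 60th percentile, 3 were lower in the LP than in the NP ovary, 6 were higher in the LP and 4 lower in the EP than in the NP uterine tissue.

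**Figure D2:**
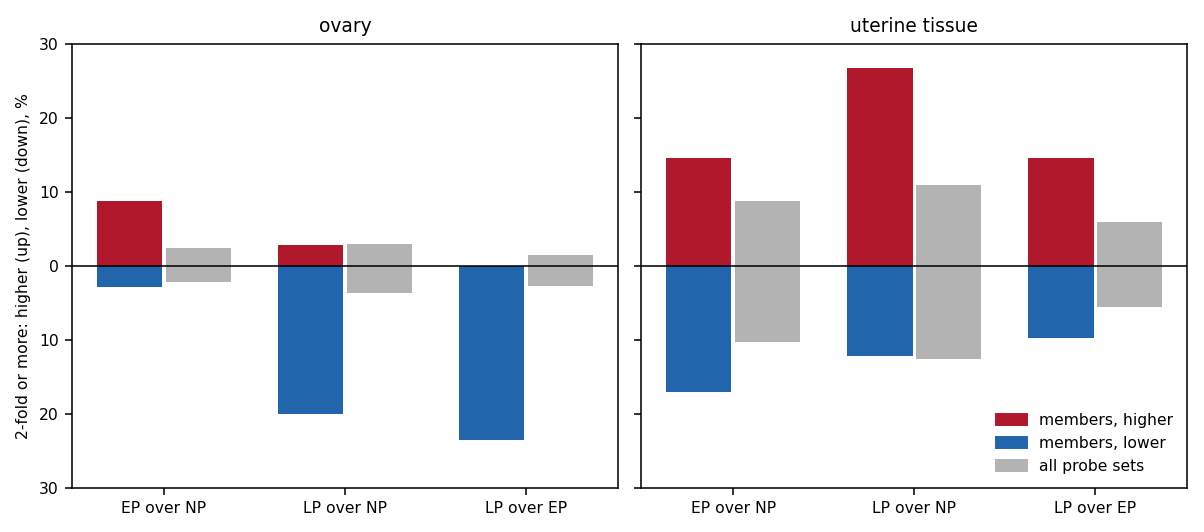
Percent of measured members (red, higher; blue, lower) and of all measured probe sets (grey) that differed 2-fold or more between 2 stages, in ovary on the left and uterine tissue on the right. The tallest bars are members lower in LP than in EP ovary (8 of 34) and members higher in LP than in NP uterine tissue (11 of 41).

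A stage change shared by both tissues was tested in the same limma fit, and 0 of 39 members passed in any contrast, nor did any of the 15882 probe sets (0%). The lowest adjusted p among members was 0.822 for EP minus NP, 0.711 for LP minus NP and 1 for LP minus EP. At an unadjusted p under 0.05 stood 5 members for EP minus NP (4.32% of all probe sets), 2 for LP minus NP (6.07%) and 3 for LP minus EP (1.64%). COL3A1, LOX and ADAMTS1 were the 3 members of the last contrast, and their signal was highest at the EP stage in both tissues. The contrasts share arrays, so a gene that is high on the EP arrays enters both the first and the last. MMP2 was among those for EP and for LP minus NP, with shared log2 changes of -0.72 and -1.17.

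**Figure D3:**
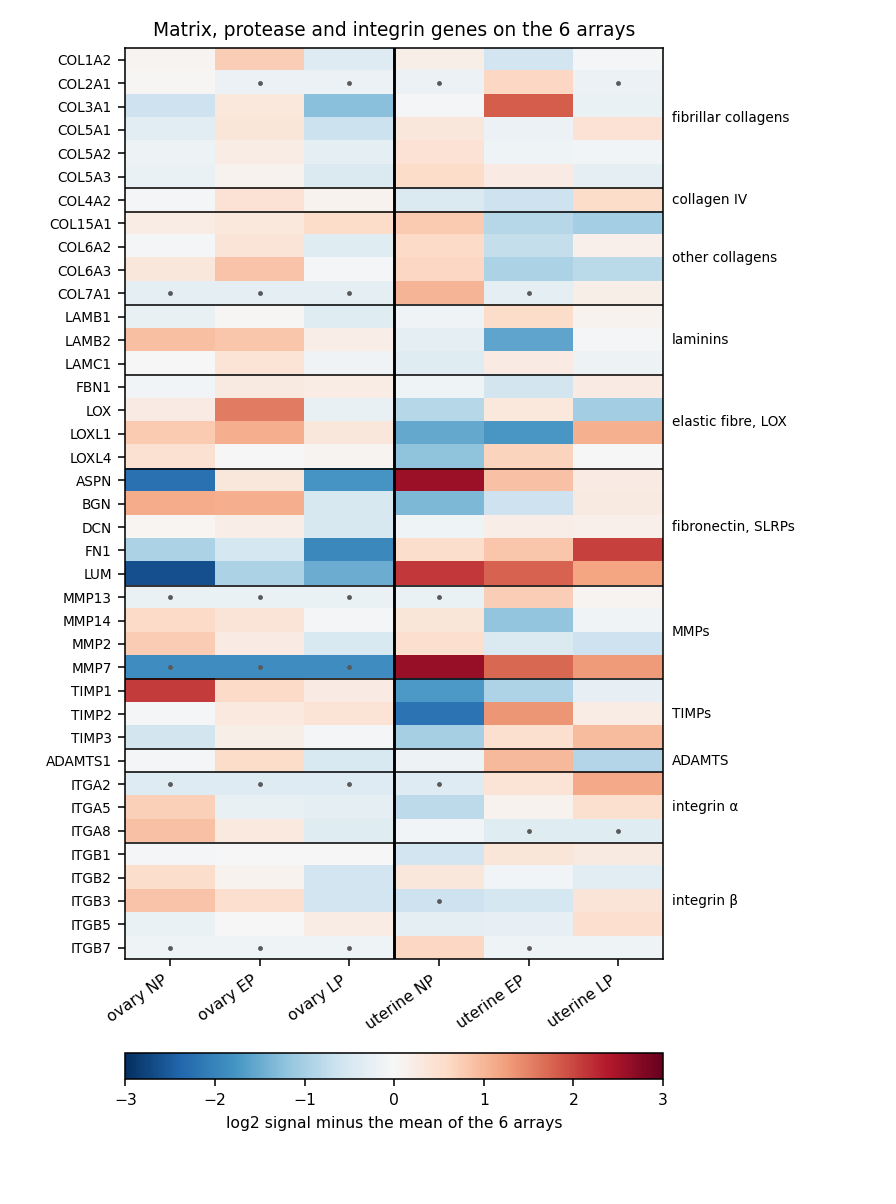
Log2 signal of the 39 members above the floor on at least 2 arrays, each minus its mean over the 6 arrays, with ovary left and uterine tissue right and the stages NP, EP and LP in order. Grey dots mark signals at the floor, and SLRPs are the small leucine-rich proteoglycans; LUM, FN1 and MMP7 are red on uterine arrays and blue on ovary arrays, although FN1 did not pass the test.

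Among the 7 fibrillar collagens, 0 of the 6 tested passed between tissues, and the most marked stage pattern was in COL3A1. COL3A1 encodes the chain of collagen III, abundant in extensible tissues. It read 133.6, 256 and 86.2 on the NP, EP and LP ovary arrays and 201.5, 728 and 181 on the uterine arrays. The EP array was the highest in each tissue, 1.92-fold above NP in ovary and 3.61-fold in uterine tissue. The LP array was 2.97-fold below EP in ovary, where the LP signal was near the floor, and 4.02-fold in uterine tissue. COL3A1 had only 1 probe set, so this pattern could not be checked with a further one. COL3A1 was lower in ovary at every stage without passing (log2 difference -1.06 ± 0.31, SE, adjusted p = 0.129).

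COL1A2, a chain of collagen I, the main fibrillar collagen, had its highest ovary signal at the same stage but not its highest uterine signal. It read 2770.2, 4332 and 1986 in ovary and 2944, 1756 and 2499 in uterine tissue, so that LP was 2.18-fold below EP in ovary. COL5A1, a chain of collagen V, which sits inside collagen I fibrils, had the same order in ovary on the probe set with the highest mean. Its signals were 943, 1525 and 766 in ovary and 1519, 1059 and 1617 in uterine tissue. A further COL5A1 probe set read 907, 785 and 533 in ovary, with EP below NP (log2 ratio -0.21 against 0.69), so the 2 disagree on that order. The other collagen V chains COL5A2 and COL5A3 stayed within 2-fold between any stages of a tissue, with log2 ratios from -0.85 to 0.38. COL2A1, the cartilage collagen, was above the floor on 2 arrays, at 94.6 on the NP ovary and 140.1 on the EP uterine array. COL11A1 lay under the floor throughout. In log2 terms, 5 of the 6 tested fibrillar collagens lay toward uterine tissue. Of these, COL5A2 (-0.14 ± 0.33) and COL2A1 (-0.19 ± 0.25) did so by less than their SE. The share of all probe sets on that side was not counted, and the median of all tested was 0.013.

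Of 4 collagens of other kinds measured in uterine tissue at EP and NP, all 4 were 2-fold or more lower at EP, beside 10.3% of all measured probe sets. At LP 2 of 5 were 2-fold or more lower than at NP and 0 higher, beside 12.6% lower. COL15A1, a collagen of the zone next to basement membranes, read 3275, 3524 and 4085 in ovary and 4872, 1548 and 1378 in uterine tissue. The EP and LP uterine arrays were thus 3.15-fold and 3.54-fold below the NP array, whereas the ovary arrays lay within 1.25-fold of each other. COL6A3, a chain of collagen VI, which forms beaded filaments around cells, read 3764, 5392 and 2915 in ovary and 4611, 1545 and 1719 in uterine tissue. It was 2.99-fold lower on the EP and 2.68-fold lower on the LP uterine array than on the NP one. Its partner chain COL6A2 read 370.2, 492 and 296 in ovary and 559, 231 and 417 in uterine tissue. There the EP array was 2.42-fold below NP, and the LP array 1.34-fold. COL7A1, the anchoring fibril collagen of epithelia, had no ovary signal over the floor and read 205, 41.9 and 113 in uterine tissue, at least 2.51-fold lower at EP than at NP. COL8A1 and COL17A1 were above the floor only at LP, COL8A1 in ovary (109.8) and COL17A1 in uterine tissue (109.2), and COL10A1 was under it on every array. None of the 4 tested differed between tissues by limma, with COL15A1 at 0.73 ± 0.43 and COL6A3 at 0.76 ± 0.40 on the log2 scale.

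Of the 4 basement membrane genes, 0 passed between tissues. COL4A2, a chain of the collagen IV network, read 5240.4, 7218 and 5813 in ovary and 3975, 3506 and 7828 in uterine tissue, where LP was 2.23-fold above EP. LAMB2, a laminin beta chain found in muscle and vessel basement membranes, read 1059, 1001 and 648 in ovary and 466, 187 and 543 in uterine tissue. Every ovary array was above every uterine one, yet the difference did not pass (1.29 ± 0.45, adjusted p = 0.177). The EP uterine array held the lowest LAMB2 signal, 2.49-fold below NP, and LP was 2.90-fold above EP. LAMB1 and LAMC1, the beta and gamma chains of the widespread laminins, lay within 2-fold of each other on all arrays of a tissue. LAMB1 read 2786, 3329 and 2521 in ovary and 3032, 4738 and 3506 in uterine tissue. LAMC1 read 2519, 3366 and 2335 in ovary and 1963, 2989 and 2269 in uterine tissue. Both were highest at EP in each tissue. A further LAMC1 probe set gave a wider ratio of EP over NP in uterine tissue, 3.96-fold against 1.52-fold.

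Among elastic fibre and cross-linking genes, LOX was highest at EP in both tissues and LOXL1 was highest at LP in uterine tissue. LOX, lysyl oxidase, read 956, 2396 and 697 on the NP, EP and LP ovary arrays and 445, 1008 and 396 on the uterine arrays. EP was 2.51-fold above NP in ovary and 2.26-fold in uterine tissue, and LP was 3.44-fold and 2.55-fold below EP. LOX was higher in ovary at each stage without passing (1.06 ± 0.25, adjusted p = 0.0782). LOXL1, which cross-links elastic fibres, read 736, 917 and 546 in ovary and 147, 127 and 898 in uterine tissue. The LP uterine array was 6.09-fold above NP and 7.05-fold above EP, and it was the only stage at which uterine tissue exceeded ovary. LOXL4 read 637, 475 and 495 in ovary and 201, 742 and 465 in uterine tissue, 3.68-fold higher at EP and 2.31-fold higher at LP than at NP. FBN1, fibrillin, the backbone of elastic microfibrils, stayed within 2-fold, at 3081, 3950.4 and 3834 in ovary and 2993, 2232 and 3903 in uterine tissue. All 4 of these genes had log2 differences toward ovary, LOXL4 by less than its SE (0.37 ± 0.48), and 0 passed.

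Of FN1 and the 4 small leucine-rich proteoglycans, 0 were higher in ovary, LUM was higher in uterine tissue and 4 of the 5 did not pass. FN1, which links collagen and integrins, read 2080.4, 2757 and 1049 in ovary and 5707, 7132 and 16505 in uterine tissue. It was higher on every uterine array, by 4.82-fold over the stages (-2.27 ± 0.53), but did not pass (adjusted p = 0.0770), although it did in a fit without the stage block. In late against early pregnancy FN1 was 2.63-fold lower in ovary and 2.31-fold higher in uterine tissue. ASPN, asporin, a collagen-binding relative of LUM, read 145, 869.6 and 201 in ovary and 4064, 1254 and 811 in uterine tissue. It was 6.01-fold higher in the EP than in the NP ovary, and 3.24-fold lower in the EP than in the NP uterine tissue. The tissues came within 1 log2 unit of each other only at EP (-0.53), and the difference over the stages did not pass (-2.45 ± 0.78, adjusted p = 0.148).

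LUM was likewise higher in pregnancy in ovary, 3.23-fold at EP and 2.23-fold at LP above NP, and lower in pregnant uterine tissue, 1.29-fold at EP and 1.93-fold at LP below NP. BGN, biglycan, which binds collagen and growth factors, ran the other way. It read 965, 942 and 319 in ovary and 176, 288 and 535 in uterine tissue. LP was 3.03-fold below NP in ovary and 3.04-fold above NP in uterine tissue, and the order of the tissues at LP was the reverse of that at NP and EP. DCN, decorin, the proteoglycan most like BGN, read 14733, 16392 and 10149 in ovary and 12999.8, 16362 and 15762 in uterine tissue, within 2-fold throughout (-0.15 ± 0.20).

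**Figure D4:**
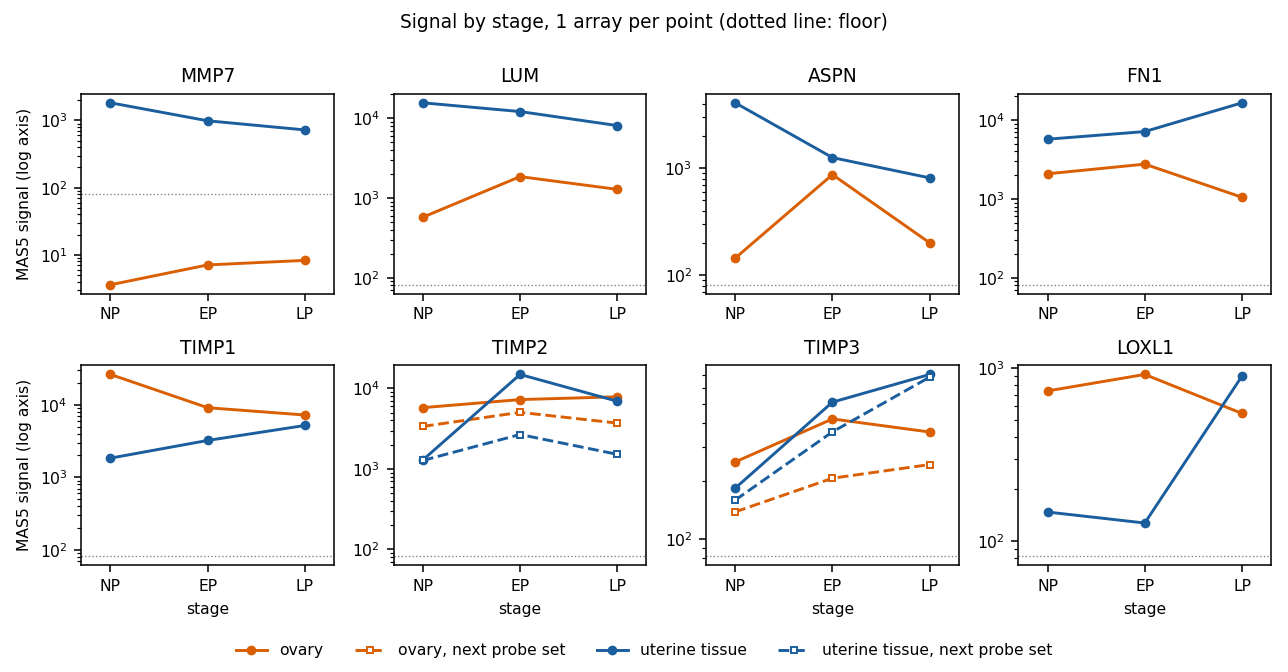
MAS5 signal (log axis) of 8 members at the NP, EP and LP stages, 1 array per point, in ovary (orange) and uterine tissue (blue). Dashed lines with open squares are a further probe set above the floor on all 6 arrays (TIMP2 and TIMP3), and the dotted line is the floor of 81.7. TIMP1 lines converge from NP to LP, and the uterine line of the upper TIMP2 probe set stands far above that of the further one at EP and LP.

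Of the 8 matrix metalloproteinases, 3 lay under the floor on all arrays, and MMP7 alone among the 4 tested passed between tissues. Those under the floor were the collagenase MMP1, the gelatinase MMP9 and the tooth enzyme MMP20. MMP2, a gelatinase made by stromal cells, read 3563, 2497 and 1535 in ovary and 2943, 1538 and 1349 in uterine tissue. NP was the highest array in each tissue, and LP was 2.32-fold below it in ovary and 2.18-fold in uterine tissue. MMP14, the membrane enzyme that activates the MMP2 protein, read 281, 245 and 182 in ovary and 240.3, 82.9 and 173 in uterine tissue. Its EP uterine signal, near the floor, was 2.90-fold below NP. MMP7 itself was 1.85-fold lower at EP and 2.53-fold lower at LP than at NP in uterine tissue. The epithelial marker sum on those arrays was 53604 at NP, 48929 at EP and 59826 at LP, and its part in the MMP7 values was not tested. MMP3, stromelysin, was above the floor on the LP uterine array only (208), at least 2.55-fold above NP and EP. A further MMP3 probe set was also above the floor only there (242). MMP13, a collagenase, read 158 and 99.9 on the EP and LP uterine arrays and was under the floor elsewhere.

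In uterine tissue TIMP1, TIMP2 and TIMP3 were each 2-fold or more higher at LP than at NP, TIMP2 on only 1 of its 2 probe sets. Between tissues 0 of the 3 passed. TIMP1, an inhibitor that also has growth-factor activity, read 26058, 9078 and 7203 on the NP, EP and LP ovary arrays and 1838, 3220.0 and 5176 on the uterine arrays. Every ovary array was above every uterine array, but the gap narrowed by stage, with log2 differences of 3.83, 1.5 and 0.48. The average did not pass (1.93 ± 0.60, adjusted p = 0.143). TIMP1 was 3.62-fold lower in the LP than in the NP ovary, and 2.82-fold higher in the LP than in the NP uterine tissue. Of 8 macrophage markers 5 were 2-fold or more lower in the LP than in the NP ovary and 0 higher. Over all measured probe sets 3.65% were lower and 2.92% higher. The NP ovary array is the one with the raised hybridisation controls and GAPDH ratio. The macrophage markers summed to 8157, 4964 and 4069.9 on the NP, EP and LP ovary arrays. Their part in the TIMP1 values was not tested.

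TIMP2, which both inhibits MMP2 and helps MMP14 to activate it, gave the widest stage ratio of any member. It read 5773, 7271 and 7879.5 in ovary and 1291, 14936 and 6928 in uterine tissue. EP was 11.6-fold and LP 5.37-fold above NP in uterine tissue, whereas the ovary arrays differed by at most 1.36-fold. The further TIMP2 probe set gave 3374, 5046 and 3711 in ovary and 1273, 2676 and 1517 in uterine tissue. It gave the same direction with smaller ratios, 1.07 and 0.25 on the log2 scale against 3.53 and 2.42. Between tissues the 2 probe sets disagreed on the call. The further one was 2.3-fold higher in ovary and passed by limma (1.20 ± 0.21, adjusted p = 0.0346). The first, which stands for the gene by the rule, was higher in uterine tissue at EP (-1.04) and did not pass (0.44 ± 0.57, adjusted p = 0.707).

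TIMP3, the matrix-bound inhibitor, read 251, 418 and 358 in ovary and 184, 510.0 and 709 in uterine tissue. EP was 2.78-fold and LP 3.86-fold above NP in uterine tissue, and a further probe set gave log2 ratios of 1.17 and 2.11 there, against 1.47 and 1.95. The trophoblast marker sum was also higher on the EP and LP than on the NP uterine arrays, led by PLET1 at 49.1, 32821 and 31638 and PAG6. Its part in the TIMP values was not tested. TIMP4 was under the floor on all arrays.

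Only ADAMTS1 among the 3 ADAMTS genes was above the floor on more than 1 array. ADAMTS1 is a protease that cuts the proteoglycan versican and is needed for ovulation in mice. It read 2865, 4397 and 2190.2 in ovary and 2699.5, 5879 and 1635 in uterine tissue. EP was the highest stage in both tissues, 1.53-fold above NP in ovary and 2.18-fold in uterine tissue. LP was 2.01-fold and 3.60-fold below EP. A further ADAMTS1 probe set gave the same order of stages in both tissues, with log2 ratios of LP over EP of -0.99 and -1.41 against -1.01 and -1.85. The tissue difference did not pass (0.029 ± 0.23, adjusted p = 0.956). ADAMTS6 was above the floor on the NP uterine array only (120.1) and ADAMTS20 on none.

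Of 8 integrin chains tested between tissues, 0 passed. ITGB1, the beta chain shared by most matrix-binding integrins, read 6333, 6683 and 6597 in ovary and 4481, 8531 and 8069 in uterine tissue, within 2-fold throughout. ITGB5, the partner of the alpha V chain, read 849.6, 992 and 1148 in ovary and 794, 823 and 1387 in uterine tissue. ITGA5, the alpha chain of the fibronectin receptor, read 378, 197 and 189 in ovary and 133, 251 and 325 in uterine tissue. LP was 2-fold below NP in ovary and 2.44-fold above NP in uterine tissue. ITGB3, the partner of the alpha V chain in the vitronectin receptor, read 226, 177 and 84.6 in ovary and 80.6, 87.5 and 163 in uterine tissue. It was 2.67-fold lower in the LP ovary, where its signal was near the floor, than in the NP ovary. ITGB3 was at least 2-fold higher in the LP than in the NP uterine tissue.

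ITGA2, the alpha chain of a collagen receptor, was under the floor on the ovary arrays and read 22.8, 141 and 237 in uterine tissue, at least 2.90-fold higher at LP than at NP. ITGA8, a smooth muscle and mesenchymal chain, read 192, 128 and 81.9 in ovary and 99.0, 68.3 and 55.4 in uterine tissue. A further ITGA8 probe set read 145, 143 and 61.1 in ovary, under the floor at LP only. ITGB2, the beta chain of leukocyte integrins, read 316, 237 and 149 in ovary and 277, 207 and 175 in uterine tissue. It was 2.13-fold lower in the LP than in the NP ovary, where the macrophage marker sum was lower too, and the part of those cells was not tested. ITGB7, a chain of lymphocyte integrins, was under the floor in ovary and read 138, 81.0 and 82.2 in uterine tissue, while its further probe set was under the floor on all arrays. ITGA2B, the platelet chain, was above the floor on the EP uterine array only (103), and ITGA6 and ITGB1BP2 were under it throughout.

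The pathway genes outside the rule gave 6 calls between tissues, 5 higher in ovary and 1 higher in uterine tissue, with the number tested given below for each list. Over all genes tested, 2.95% were higher in ovary and 2.51% in uterine tissue. All these lists were chosen with earlier results of these data known. Of 11 tested collagen synthesis and processing genes 2 were higher in ovary, 0 in uterine tissue and 9 did not pass, with a median log2 difference of 0.78. PCOLCE2, which enhances procollagen cleavage, read 7452, 8991 and 8176 in ovary and 581, 1239 and 2722 in uterine tissue (2.71 ± 0.40, adjusted p = 0.0244). BMP1, the procollagen C-proteinase itself, read 1185, 1263 and 1882 in ovary and 252, 166 and 162 in uterine tissue (2.90 ± 0.35, adjusted p = 0.0156). Of 17 other proteases and inhibitors, 3 were higher in ovary, 0 in uterine tissue and 14 did not pass. Those 3 were the protease inhibitor SERPINE2 (4.69), the secreted protease HTRA1 (2.01) and PLAT, tissue plasminogen activator (1.91). PLAU, urokinase, lay the other way without passing (-1.02, adjusted p = 0.0772).

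Of 19 tested matricellular and accessory proteins, 0 were higher in ovary, 1 was higher in uterine tissue and 18 did not pass. That gene was MFAP5, a microfibril protein, with 13.5, 132 and 53.7 in ovary and 675, 614 and 4084 in uterine tissue (-3.63 ± 0.67, adjusted p = 0.0433). Its NP and LP ovary signals were under the floor and set to it before the fit. The size of its difference is thus a lower bound, and its SE and p-value hold only part of the spread among ovary arrays. Between stages, 9 of 19 measured genes of this list were 2-fold or more higher and 2 lower in the LP than in the NP uterine tissue. Over all measured probe sets 10.9% were higher and 12.6% lower. The list was chosen with earlier results of these data known. SPP1, osteopontin, an integrin ligand at the attachment surface of the pig uterus, read 6637, 3188 and 1751 in ovary and 1297, 28071 and 28163 in uterine tissue. POSTN, periostin, read 1541, 1266 and 863 in ovary and 208, 2737 and 5422 in uterine tissue. Neither passed between tissues. Of 10 TGF beta signalling genes and 8 integrin adhesion genes, 0 passed, with medians of 0.34 and -0.015. ITGAV, the alpha V chain, fell outside the rule because its symbol has no digit. It read 1297, 1502 and 1005 in ovary and 815, 1052 and 559 in uterine tissue (0.68 ± 0.24, adjusted p = 0.175).

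Further probe sets of 7 members were above the floor on all 6 arrays and gave a technical check of 9 pairs on the same arrays. They belonged to ADAMTS1, COL5A1, FBN1, LAMB1, LAMC1, TIMP2 and TIMP3. For the tissue difference the 2 probe sets of a pair differed by a median of 0.11 and at most 0.77 on the log2 scale, with the same sign in 8 of 9. For stage ratios in ovary the median disagreement was 0.15 to 0.25, and in uterine tissue 0.27 to 0.46. It reached 2.46 for TIMP2 at EP over NP. Signs were the same in 9 of 9 pairs for EP over NP and for LP over EP in uterine tissue. They were the same in 6 of 9 for LP over NP in uterine tissue, the comparison with the most members past 2-fold, and in 5 of 9 for LP over NP in ovary. LAMC1 had 3 further probe sets, all with EP above NP in uterine tissue, at 0.78 to 1.99 against 0.61. These pairs share the RNA of an array, so they show how well probes agree and not how pigs vary.

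**Figure D5:**
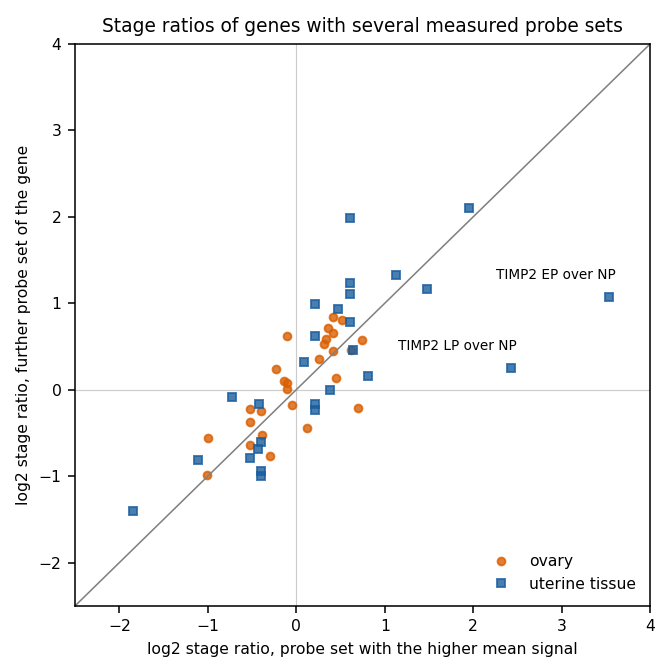
Log2 stage ratios of the probe set with the higher mean signal (x axis) against a further probe set of the same gene (y axis), for 9 pairs from 7 members and 3 stage comparisons in ovary (orange circles) and uterine tissue (blue squares). The line marks equal ratios; the points farthest from it are TIMP2 in uterine tissue, at 3.53 against 1.07 for EP over NP and 2.42 against 0.25 for LP over NP.

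Each measured member had its highest signal on some array, and few had it in the late pregnant ovary. Of 44 members above the floor on at least 1 array, 9, 7 and 1 were highest on the NP, EP and LP ovary arrays, and 10, 9 and 8 on the NP, EP and LP uterine arrays. Over 17196 probe sets, the shares were 16.1%, 13.3% and 11% for ovary and 26.4%, 14.8% and 18.4% for uterine tissue. The member highest in the LP ovary was COL8A1.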

How the data were processed

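The authors deposited linear-scale intensity for each probe set, computed with MAS5 per the submitters' processing notes. The sources used here give neither the version of MAS5 nor its settings. The 2%-trimmed mean was 500.1 on every array, so arrays had been scaled to a common level. Of 24123 probe sets, 124 controls were left out. Gene symbols came from a platform annotation table: 10069 probe sets had 1 symbol, 198 several and 13732 none. Of those with 1 symbol, 9961 matched a current gene record by identifier, and 0 symbols changed. All 95 member probe sets matched.

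Signals under 81.7 were raised to it, and 15882 probe sets above it on at least 2 arrays were fitted with limma 3.58.1 in R 4.3.3 (tissue plus stage, intensity trend, Benjamini-Hochberg adjustment over all, threshold 0.05). The fit has 2 residual degrees of freedom. It was tested on simulated data, where 7 of 50 log2 differences of 1 and 42 of 50 of 2 passed in the right direction. There 12 unchanged probe sets passed too. The simulated arrays had independent noise, no floor and no stage changes, so these rates need not hold for the real arrays. Within a tissue, stages were compared by counts at 2-fold, untested, among genes over the floor on either array. Precision is limited by the number of arrays. Members, gene lists and tests were chosen with earlier results of these data known. Values per array were given, by rule, for up to 4 members of each role with the highest mean signal, members past the threshold and those with the largest stage ratios. Values of the remaining members, SPP1, POSTN, PLAU and ITGAV were added after they were seen. Alternatives were other floors (33.7 and 246.2), a pseudocount of 16, quantile normalization, median centring, no filter, no trend, no stage block, each stage left out, averaged probe sets and the rule without ITGB1BP2. No sequences or gene positions were used here. Figures were drawn with matplotlib 3.10.9 in Python 3.11.15.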

Additional observations from a re-analysis of the deposited data

Results flagged for a closer look

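For 5 members a stage ratio was 2-fold or more in opposite directions in the 2 tissues, with all arrays involved above the floor. With 1 array per tissue and stage, the difference between the tissues was not tested. The same count was not made over all probe sets, so how common such ratios are on these arrays is not known. The ovary ratios of ASPN, TIMP1, BGN and ITGA5 use the NP ovary array, the one with the raised hybridisation controls and GAPDH ratio. The part of that array in these ratios was not tested. ASPN, for EP over NP, had log2 ratios of 2.59 in ovary and -1.70 in uterine tissue, a difference of 4.28. For LP over NP, TIMP1 had -1.85 in ovary and 1.49 in uterine tissue, a difference of -3.35. BGN had -1.60 in ovary and 1.60 in uterine tissue, a difference of -3.20. ITGA5 had -1 in ovary and 1.29 in uterine tissue, a difference of -2.29. FN1, for LP over EP, had -1.39 in ovary and 1.21 in uterine tissue, a difference of -2.61.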

How the results depend on the processing

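The count of members higher in ovary was 0 under every alternative run. The count higher in uterine tissue was 2 (MMP7 and LUM) in the reported fit and 0 without the filter on low signals, where no probe set passed (prior degrees of freedom 0.822, against 3.75 as reported). It was 0 to 2 when a stage was left out, with 0 for the EP arrays, and 3 (with FN1) without the stage block. Over 12 alternatives the log2 difference of LUM was -3.74 to -2.68, with adjusted p of 0.00602 to 0.267. That of MMP7 was -5.64 to -2.15, with adjusted p of 0.00218 to 0.222, and its size follows the floor. Of the 12 stage counts, all 12 stayed within 1.5 times with the lower floor, the pseudocount and quantile normalization, and 9 did with the higher floor and 9 with averaged probe sets. With the higher floor, 3 members were lower in the LP than in the NP ovary (7 as reported), 4 lower in the EP (7) and 6 higher in the LP (11) than in the NP uterine tissue. With averaged probe sets, 4 were lower in LP than EP ovary (8), and in uterine tissue 6 were higher in LP than NP (11) and 2 lower in LP than EP (4). Averaging brings in probe sets near the floor. The labels give no replicate numbers; the stage block of the reported fit pairs the arrays of a stage. Signal near the floor limits what can be said of the 14 members above it on fewer than 2 arrays.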
